A study of Gallus gallus with 6 samples.

Results

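The comparison described here is between the H3K27ac library of FGF2-treated explants and the H3K27ac library of control explants, 2 of the 6 libraries of the series, read across the genome in 100-kb bins. Both libraries came from posterior pre-placodal ectoderm (pPPR), the head ectoderm that holds the precursors of otic-epibranchial progenitors (OEPs), dissected from chick embryos at HH6. The FGF2 explants were cultured for 6 h in DMEM with 0.25 ng/µl FGF2, and the controls for 6 h in DMEM alone. Around 100 tissues were pooled for each chromatin preparation, so each condition is 1 pooled library and no spread between replicates can be given. The other 4 libraries are H3K27me3 and input of the same conditions, and H3K27me3 is used below only beside the acetylation. The 2 libraries were the only members the rule gave, and they were compared over 10032 bins of 29 chromosomes (1 to 28 and Z), counted from position 0 of each.

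H3K27ac is the acetylation of lysine 27 on histone H3. It is placed by acetyltransferases such as p300 and CBP and marks active promoters and enhancers, while H3K27me3 on the same residue is placed by Polycomb repressive complex 2 and marks silenced genes. Enhancers of a developmental gene often lie far from it, in the neighbouring introns and intergenic DNA, so that a change in its regulatory input can show as acetylation spread over a broad domain rather than at a single site. FGF signalling acts through receptor tyrosine kinases and the MAPK cascade, is required to induce the otic placode, and switches on its own feedback inhibitors, the Sprouty genes, in many tissues.

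The values used are peak positions called by Homer. The score column of these lists holds 1 in every entry and gives no height, and no read numbers were used, so the depth of each library is unknown. The FGF2 list held 37405 peaks and the control list 32725, of which 35841 and 31442 lay on the binned chromosomes. Of the FGF2 peaks 98.9% were 751 bp wide, and of the control peaks 99.1%. With this nearly fixed width, peak numbers give the length the lists cover and not the extent of each acetylated stretch. Counts were scaled to the mean of both list totals, 35065, by multiplying FGF2 counts by 0.937 and control counts by 1.07. The scaled difference is the scaled FGF2 count minus the scaled control count. Where the FGF2 share of the peaks in a region is given, it is set beside 53.3%, the FGF2 share of both lists, with a 95% exact (Clopper-Pearson) interval that covers counting error only and treats peaks as independent.

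The loci to which the bins were compared are those for which the study displayed its ChIP-seq tracks. They were picked with these same libraries in view, so their place among the bins describes how far the displayed pattern reaches and is not independent evidence of its direction. For 4 of them elements were cloned for reporter assays. The primers fix which pieces of DNA these are, and each is shown 5′ to 3′ with its galGal4 position. The sequences were not matched to a genome here.
Spry1-E forward (chr4:52768022-52768515, 494 bp): acgcctctctaccctcttt
Spry1-E reverse: gctggaagctagagccatatc
Foxi3-E1 forward (chr4:85595147-85595756, 610 bp): tctgacatttcatcatggcttca
Foxi3-E1 reverse: ggtcatctgaatgacaactgtctc
Foxi3-E2 forward (chr4:85611260-85611770, 511 bp): tttggccctgttcaaatgg
Foxi3-E2 reverse: cagtttgttgataccttcagtgt
Hesx1-E forward (chr12:8576366-8576880, 515 bp): caactgctttctataatgtgtaccag
Hesx1-E reverse: gcgtttgattatcgtgctgtc
Cxcl14-E forward (chr13:14642196-14643846, 1651 bp): agcctaccagttgtcctaga
Cxcl14-E reverse: cacagtgtattgcttggcttt

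Each of these pieces had an FGF2 H3K27ac peak closer to it than any control peak. The study took its elements from putative enhancers that it had called by H3K27ac in these same libraries. A nearby FGF2 peak is thus part of how the elements were chosen and not separate evidence of a gain. At Spry1-E the nearest control peak was 40.3 kb away and at Hesx1-E 70.3 kb away. An FGF2 peak lay across Spry1-E and across Foxi3-E2, and the nearest FGF2 peaks were 0.376 kb from Foxi3-E1, 0.474 kb from Hesx1-E and 0.034 kb from Cxcl14-E. At these last 3 elements the nearest control peaks were 5.16, 70.3 and 1.95 kb away, and at Foxi3-E2 the nearest control peak was 2.31 kb away. The Homer peak across Spry1-E has features found in no other entry of the FGF2 list. It is the last entry, is 1834 bp wide where the next widest peak has 751 bp, and is the single entry whose name carries the number of another chromosome. Without that entry the nearest FGF2 Homer peak lay 1.77 kb from Spry1-E. The FGF2 MACS2 list, made with a second peak caller, held 1 peak across Spry1-E and 1 across Foxi3-E2, and the control MACS2 list held 0 across any of the 5 elements.

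Over the genome as a whole the FGF2 and control libraries marked similar territory at this scale. The mean was 3.57 peaks per bin in the FGF2 library and 3.13 in the control library, the median was 2 in both, and the counts of both libraries had a correlation of 0.815 over the bins. The scaled difference was above 0 in 4281 bins, below 0 in 4594 bins and 0 in the 1157 bins that held no peak of either list. From the 5th to the 95th percentile it ran from -4.02 to 3.68 scaled peaks, with a median of 0. Its extremes were 15.13 and -15.54.

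A gain was called where the scaled FGF2 count plus 1 was at least 2 times the scaled control count plus 1 and the scaled difference was at least 3, and a loss by the same rule in the other direction. There were 465 bins with a gain, 4.64% of the bins, and 420 with a loss, 4.19%. The gain bins held 3259 FGF2 peaks and 676 control peaks, and the loss bins 877 FGF2 peaks and 2734 control peaks. These calls are not set against replicates, and most of them rest on few peaks. The median gain bin had 6 FGF2 peaks and 1 control peak, the median loss bin 2 FGF2 peaks and 5 control peaks. In 49 of the 465 gain bins the interval of the FGF2 share lay wholly above 53.3%, and in 46 of the 420 loss bins it lay wholly below. Together these are 1.07% of the 8875 bins with a peak. Exact intervals from so few peaks are wide, and in the 2339 bins with 1 or 2 peaks they cannot leave out 53.3%. The 1.07% is therefore no measure of how many bins differ, and most single bins cannot be told from counting error.

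Most FGF2 peaks in gain bins lay where the control list had no peak. Of the FGF2 peaks in gain bins 11.8% shared at least 1 bp with a control peak, against 35.3% of FGF2 peaks in all bins. In loss bins, 16.6% of the control peaks shared sequence with an FGF2 peak, against 40.2% of control peaks in all bins. These shares are tied to the call rule, since a bin with few peaks in one list has few to share. As counted, without scaling, the 267 bins with at least 3 FGF2 peaks and 0 control peaks outnumbered the 83 with at least 3 control peaks and 0 FGF2 peaks. The FGF2 list is the longer, and its share of the peaks was higher in sparse bins, 58.9% in bins with 1 or 2 peaks. How much of this excess went with list size and peak density was not tested.

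The bin of Foxi3 and the bin of Spry1 were the highest and second highest of all 10032 bins (the plot of ranked differences). Foxi3 encodes a forkhead transcription factor needed for otic placode formation, and Spry1 an inhibitor of receptor tyrosine kinase signalling that is itself an FGF target. The Foxi3 bin with element E1, at 85.5 to 85.6 Mb of chromosome 4, held 23 FGF2 peaks and 6 control peaks. Its scaled difference was 15.13 and its FGF2 share 79.3% (60.3 to 92.0%). MACS2 called 11 peaks in this bin with FGF2 and 11 in control, a scaled difference of 3.98 at rank 325 of 8485 bins. The Spry1 bin, at 52.7 to 52.8 Mb of chromosome 4, held 15 FGF2 peaks and 0 control peaks, a scaled difference of 14.06 and an FGF2 share of 100% (78.2 to 100%). Against a floor of 3 control peaks this is at least 4.37-fold higher with FGF2, and the next highest FGF2 count in a bin without a control peak was 13. Without the last entry of the list the bin had 14 FGF2 peaks, a scaled difference of 13.12 and again rank 2. MACS2 called 12 peaks in it with FGF2 and 2 in control, at rank 3. Both ranks depended on where the bins start. With bins shifted by 50 kb the Foxi3 bin had a scaled difference of 8.44 at rank 25 and the Spry1 bin 9.24 at rank 17. The shifted Foxi3 bin held 17 FGF2 peaks and 7 control peaks, just short of the 2-fold rule, and so lost its gain call. The shifted Spry1 bin, with 11 FGF2 peaks and 1 control peak, kept its call.

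**Figure D1:**
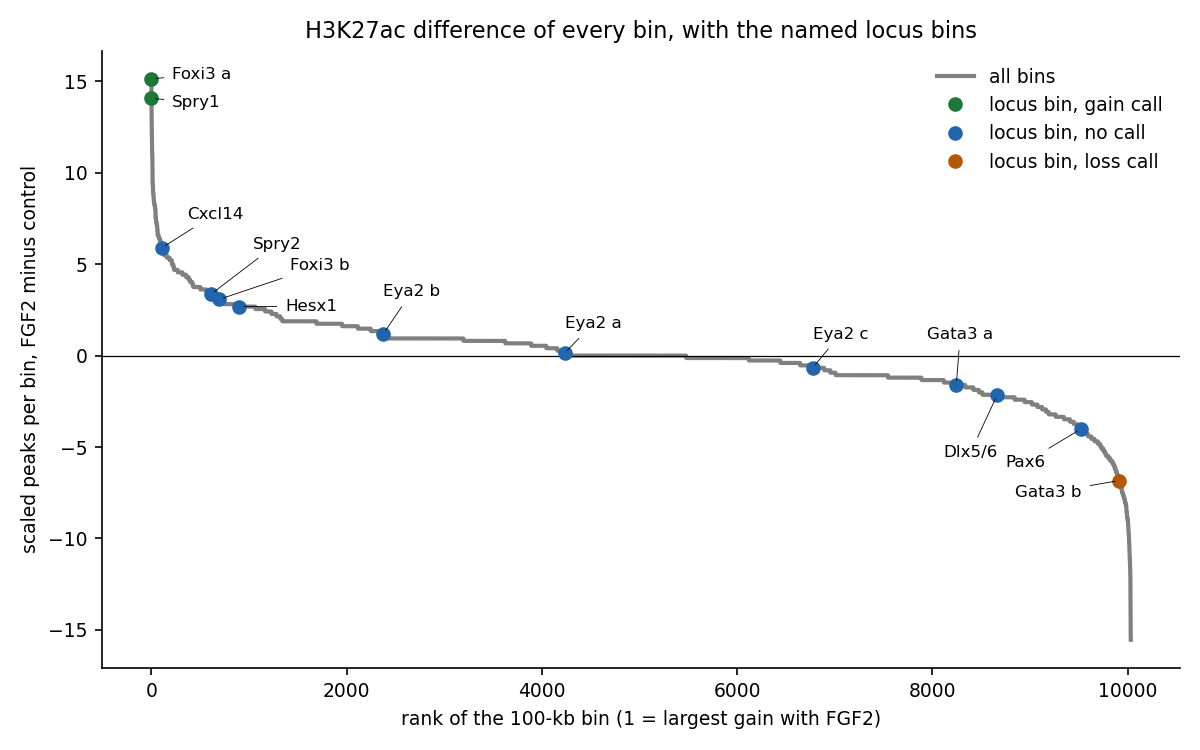
Scaled difference of H3K27ac peaks (FGF2 minus control, y axis) of all 10032 bins of 100 kb, ordered by rank (x axis, 1 is the largest gain), with the 13 bins of the named loci as points. Letters a, b and c number the bins of a locus that spans several. The Foxi3 and Spry1 bins stand at ranks 1 and 2, the bins of Cxcl14, Spry2 and Hesx1 lie lower on the gain side, and the second Gata3 bin has a loss call at rank 9916.

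The remaining loci with a positive difference ranked lower and had no call in the unshifted bins. Cxcl14, a chemokine, ranked 108 with 12 FGF2 peaks and 5 control peaks at 14.6 to 14.7 Mb of chromosome 13. Its scaled difference was 5.89 and its FGF2 share 70.6% (44.0 to 89.7%), but with bins shifted by 50 kb the difference was 1.47 (5 FGF2 peaks and 3 control peaks) at rank 2192. In the unshifted bin MACS2 called 8 peaks with FGF2 and 4 in control, a scaled difference of 6.30 at rank 76 of 8485 bins. Spry2, the other Sprouty gene shown, ranked 609 with 7 FGF2 peaks and 3 control peaks at 151.8 to 151.9 Mb of chromosome 1, a share of 70% (34.8 to 93.3%). The second Foxi3 bin, which holds element E2, ranked 698 with 9 FGF2 peaks and 5 control peaks. Hesx1, a homeobox gene, ranked 901 with 4 FGF2 peaks and 1 control peak at 8.5 to 8.6 Mb of chromosome 12. The intervals of these 4 unshifted bins all include 53.3%, so their differences were not detectable as single bins with so few peaks. With bins shifted by 50 kb the Spry2 and Hesx1 bins passed the gain rule. The shifted Spry2 bin held 12 FGF2 peaks and 4 control peaks, a scaled difference of 6.96 at rank 73. The shifted Hesx1 bin held 4 FGF2 peaks and 0 control peaks, a scaled difference of 3.75 at rank 403.

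Of the loci on the other side, Gata3 had a loss call. Gata3 encodes a zinc-finger transcription factor, and its browser view spans 2 bins of chromosome 1. The bin at 4.3 to 4.4 Mb held 3 FGF2 peaks and 9 control peaks, a scaled difference of -6.83 at rank 9916, or 113 counted from the lowest, with an FGF2 share of 25% (5.49 to 57.2%). This call depended on where the bins start. With bins shifted by 50 kb the bin held 4 FGF2 peaks and 6 control peaks. Its scaled difference was then -2.68 at rank 9037, short of the 3 needed for a call. MACS2 called 4 peaks with FGF2 and 11 in control in the unshifted bin, a scaled difference of -4.51. The neighbouring bin at 4.2 to 4.3 Mb held 4 FGF2 peaks and 5 control peaks. Pax6, a homeobox gene of the lens and eye, had 6 FGF2 peaks and 9 control peaks at 5.2 to 5.3 Mb of chromosome 5, a scaled difference of -4.02 at rank 9520. In this bin MACS2 called 5 peaks with FGF2 and 15 in control, a scaled difference of -6.70 at rank 8395 of 8485 bins. Dlx5/6, a pair of homeobox genes of the placode border, had 8 FGF2 peaks and 9 control peaks and ranked 8665. The MACS2 differences of the Dlx5/6 bin and the Gata3 bin at 4.2 to 4.3 Mb went the other way, 0.47 and 0.24. The Homer intervals of all 4 of these bins include 53.3%. Eya2, a transcriptional co-activator expressed throughout pre-placodal ectoderm, spans 3 bins of chromosome 20. They held 7, 15 and 5 FGF2 peaks and 6, 12 and 5 control peaks, at ranks 4234, 2378 and 6774. Around them, 200 kb before the middle bin, lay a bin with a loss call, with 9 FGF2 peaks and 17 control peaks.

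Ranking by ratio rather than difference kept Spry1 at the top and moved Foxi3. By the log2 ratio with 1 peak added to each count, the Spry1 bin ranked 1 with a log2 ratio of 3.91. The Foxi3 bin ranked 357 with a log2 ratio of 1.60, because 6 control peaks were already in it. Cxcl14 ranked 1843 and Hesx1 843 on that scale.

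By Homer peak counts, the gain at Spry1 was the largest gain block of the binned chromosomes. Blocks were not ranked again with shifted bins, MACS2 peaks or another rule for runs. A block is an unbroken run of bins whose scaled difference has the same sign, ranked by the sum of its differences. The Spry1 block covered 7 bins, 52.4 to 53.1 Mb of chromosome 4, and held 61 FGF2 peaks and 11 control peaks, a summed difference of 45.40. From the first bin to the last it had 12, 4, 3, 15, 8, 14 and 5 FGF2 peaks, against 3, 1, 2, 0, 1, 1 and 3 control peaks. The FGF2 count was thus highest in 3 separate bins, 300 kb before the Spry1 bin, in it and 200 kb after it, with lower counts between them. The bin after it by 200 kb, with 14 FGF2 peaks and 1 control peak, was itself the 6th largest gain of all bins. The FGF2 share of the block was 84.7% (74.3 to 92.1%).

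The Spry2 block was the third largest and had a different shape. It also covered 7 bins, 151.6 to 152.3 Mb of chromosome 1, and held 53 FGF2 peaks and 11 control peaks, a summed difference of 37.90 and an FGF2 share of 82.8% (71.3 to 91.1%). Its bins had 5, 6, 7, 11, 10, 8 and 6 FGF2 peaks, against 1, 0, 3, 2, 3, 1 and 1 control peaks. No single bin of it was among the 10 largest gains, yet 6 of its 7 bins had a gain call. The 1 bin without a call was the one that holds the displayed Spry2 view, where the control count of 3 was equal to the highest of the block. With bins shifted by 50 kb the bin of this view passed the gain rule, with 12 FGF2 peaks and 4 control peaks. The excess around Spry2 was thus spread over 700 kb, with 5 to 11 FGF2 peaks in every bin. No MACS2 value could be had for this block.

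The other loci had shorter blocks. The Foxi3 block covered 4 bins, 85.4 to 85.8 Mb of chromosome 4, with 43 FGF2 peaks and 16 control peaks, and ranked 14 by summed difference (23.17). Of its 43 FGF2 peaks 23 lay in the bin of element E1. MACS2 gave this block 28 FGF2 peaks and 33 control peaks, a ratio of 1.21 once scaled to the MACS2 list totals. The Hesx1 block covered 2 bins with 6 FGF2 peaks and 2 control peaks, and the Cxcl14 gain was confined to its own bin, with a bin of negative difference on each side. Gata3 lay in a loss block of 5 bins, 4.1 to 4.6 Mb of chromosome 1, with 23 FGF2 peaks and 34 control peaks and rank 84 among the loss blocks. The Pax6 difference was 1 bin long, and the Dlx5/6 run 2 bins.

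**Figure D2:**
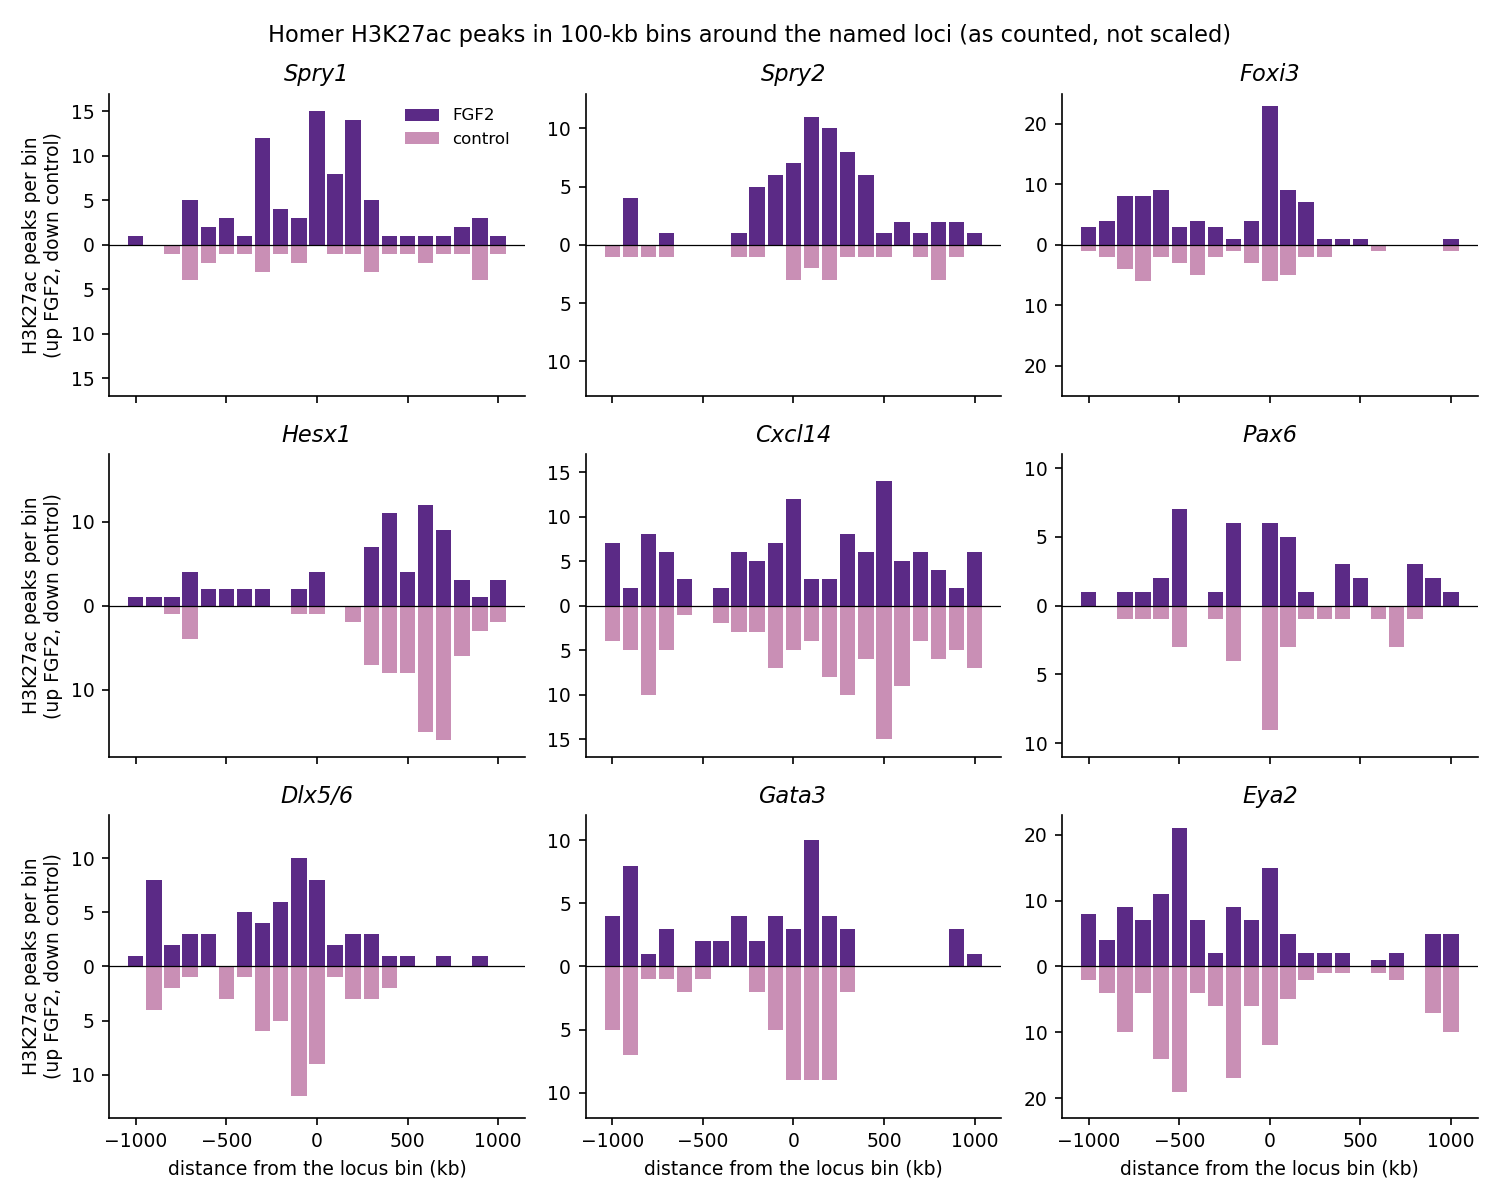
Homer H3K27ac peaks as counted, without scaling, in 100-kb bins within 1000 kb on each side of the bin of each named locus (x axis, distance in kb), FGF2 bars upward and control bars downward. Over the 7 adjacent bins of each Sprouty block the FGF2 bars stand above 0 to 3 control peaks, with 3 to 15 FGF2 peaks at Spry1 and 5 to 11 at Spry2. The central Foxi3 bin has 23 FGF2 peaks and 6 control peaks, and the Eya2 panel holds a bin with 9 FGF2 peaks and 17 control peaks 200 kb before the locus.

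How far the excess reached was followed in rings of bins on both sides of each locus bin. At Spry1 the bins at 100 to 200 kb held 29 FGF2 peaks and 5 control peaks, a scaled ratio of 5.07. At 300 to 500 kb they held 23 and 10, a ratio of 2.01, and at 600 to 1000 kb they held 16 and 16, a ratio of 0.875. At Spry2 the ratios were 4.67 at 100 to 200 kb, 3.50 at 300 to 500 kb and 1.26 at 600 to 1000 kb. The intervals of the FGF2 share lay above 53.3% in the first ring for Spry1 (lower bound 68.9%) and in the first and second rings for Spry2 (lower bounds 68.7% and 56.3%). The rings pool unequal bins on both sides. At Spry1 the bin 300 kb before the locus had 12 FGF2 peaks and 3 control peaks, while the other bins of its ring had 5 or fewer FGF2 peaks. At Spry2 the second ring rested on the bins 300 and 400 kb after the locus, with 8 and 6 FGF2 peaks and 1 control peak in each, and its other 4 bins had 0 or 1 peak of each list. In the farther rings of both genes no excess was detectable with this many peaks.

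Around Foxi3 and Cxcl14 no ring had an interval that lay above 53.3%. Foxi3 had 21 FGF2 peaks and 11 control peaks at 100 to 200 kb, a ratio of 1.67, and 13 and 12 at 300 to 500 kb, a ratio of 0.948. The ring at 600 to 1000 kb had 33 and 17 peaks, a ratio of 1.70, most of them on the side before Foxi3 and separate from its block. Cxcl14 had 18 FGF2 peaks and 22 control peaks at 100 to 200 kb, a ratio of 0.716, whose interval includes 53.3% (29.3 to 61.5%). Around Hesx1 the bins at 300 to 500 kb had 28 FGF2 peaks and 23 control peaks, a ratio of 1.07, and those at 600 to 1000 kb 37 and 47, a ratio of 0.689 with a share of 44.0% (33.2 to 55.3%).

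**Figure D3:**
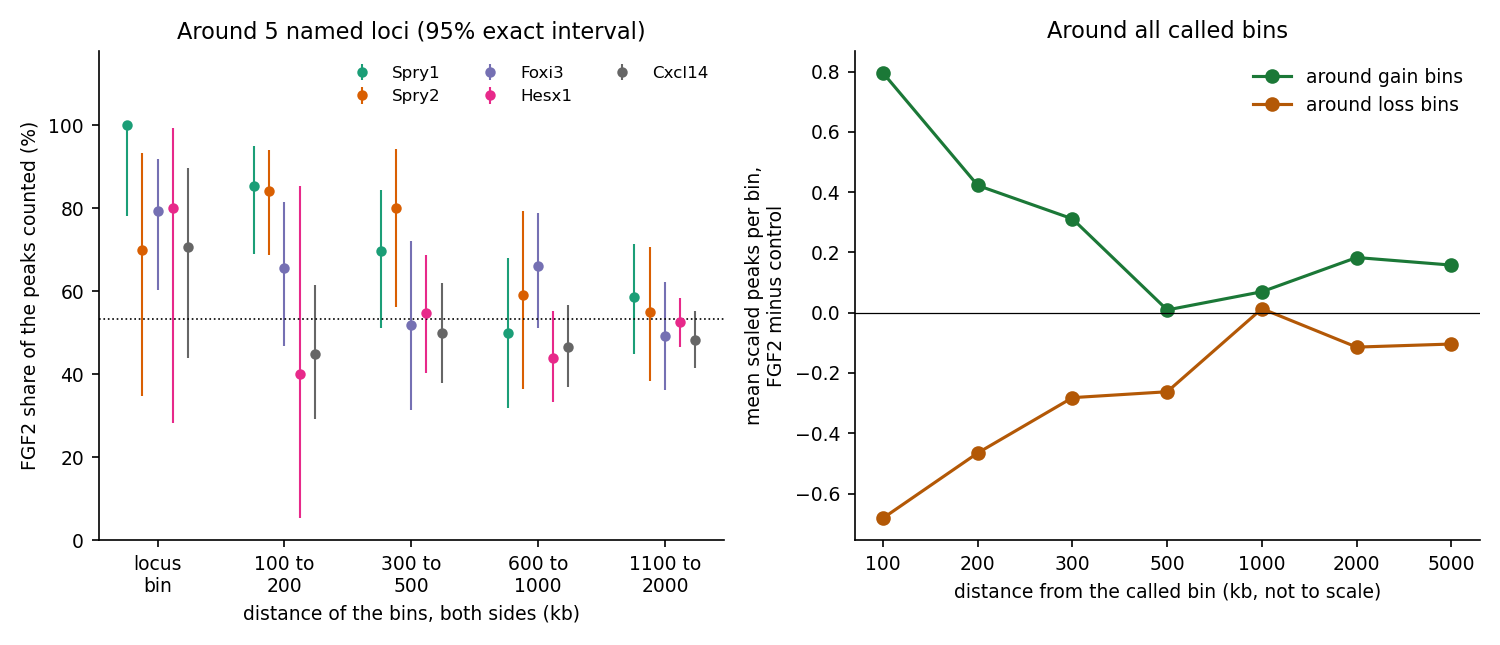
Left, the FGF2 share of H3K27ac peaks (y axis, %) in the bin of 5 named loci and in rings of bins at growing distance on both sides (x axis, kb), with 95% exact intervals and the share of both lists, 53.3%, as a dotted line. Right, the mean scaled difference (FGF2 minus control) of bins at a given distance from all 465 gain and all 420 loss bins, which is 0.796 and -0.681 at 100 kb and 0.070 and 0.014 at 1000 kb.

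Across the genome the differences of neighbouring bins were related weakly. The correlation of the scaled difference between bins was 0.172 at 100 kb (10003 pairs), 0.104 at 200 kb, 0.058 at 500 kb, 0.026 at 1000 kb and 0.052 at 2000 kb. After each chromosome's own mean was removed it was 0.137 at 100 kb and 0.066 at 200 kb. These are descriptions, since neighbouring bins come from the same libraries. The bins next to a gain bin had a mean scaled difference of 0.796, those 200 kb away 0.422 and those 500 kb away 0.0093, but those 2000 kb away had 0.183 and those 5000 kb away 0.158. Next to a loss bin the means were -0.681, -0.465 and -0.262 at 100, 200 and 500 kb. Of the neighbours of gain bins 11.4% also had a gain call, and of the neighbours of loss bins 8.60% had a loss call, beside 4.64% and 4.19% of all bins. All bins include 1157 without a peak and 2339 with 1 or 2 peaks, where no call can occur. Gain and loss calls were made in 12.7% and 8.53% of bins with 6 to 10 peaks, but in 1.46% and 2.76% of those with 21 to 55. The part of peak density in the neighbour shares was not tested.

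Most blocks were short. There were 2255 gain blocks, of which 1225 were a single bin, and 2259 loss blocks, of which 1188 were a single bin, with a median length of 100 kb for both. Of the gain blocks 131 were 500 kb or longer and 3 were 1000 kb or longer. Of the loss blocks 167 were 500 kb or longer and 17 were 1000 kb or longer. The longest gain blocks had 1300 kb and the longest loss block 1900 kb. Bins with equal peak counts in both lists have a small negative scaled difference, since the control list is shorter, and so extend loss blocks. Without scaling 150 gain blocks and 29 loss blocks of 500 kb or more were left.

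Of the 5 gain blocks with the largest summed difference, 2 held the Sprouty genes and 3 held none of the 9 displayed loci. The second largest was on chromosome Z, 24.1 to 24.7 Mb, with 53 FGF2 peaks and 7 control peaks over 6 bins and a summed difference of 42.18. Its bins had 16, 9, 13, 7, 6 and 2 FGF2 peaks, against 2, 2, 0, 1, 1 and 1 control peaks. Its FGF2 share of 88.3% (77.4 to 95.2%) was the highest of these 5 blocks, and 2 of its bins were the 4th and 5th largest gains of all bins. The 4th block, 23.7 to 24.3 Mb of chromosome 3, had 3 to 11 control peaks in each bin, with 75 FGF2 peaks and 36 control peaks over 6 bins. The 5th, 137.2 to 138.5 Mb of chromosome 1, was one of the longest gain blocks, with 62 FGF2 peaks and 25 control peaks over 13 bins and between 3 and 7 FGF2 peaks in each. No annotation of galGal4 was used, so the genes in these 3 blocks are not named.

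The largest loss blocks were mostly longer than the largest gain blocks, held more peaks and had ratios nearer to 1. The largest covered 2.5 to 4.4 Mb of chromosome 23, with 166 FGF2 peaks and 218 control peaks over 19 bins, a summed difference of -77.97 and a scaled ratio of 0.666. The next were 10.1 to 11.2 Mb of chromosome 20, with 109 FGF2 peaks and 146 control peaks, and 2.8 to 4.4 Mb of chromosome 28, with 146 and 177. They were followed by 8.7 to 10 Mb of chromosome 13, with 59 and 98, and 0.5 to 1.3 Mb of chromosome 21, with 55 and 93. The ratios of these 5 blocks ran from 0.517 to 0.722, while those of the 5 largest gain blocks ran from 1.82 to 6.62. Of the 19 bins of the chromosome 23 block 1 had a loss call, so this block is a long run of small differences. In the gain block at Spry1, 4 of 7 bins had a gain call.

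**Figure D4:**
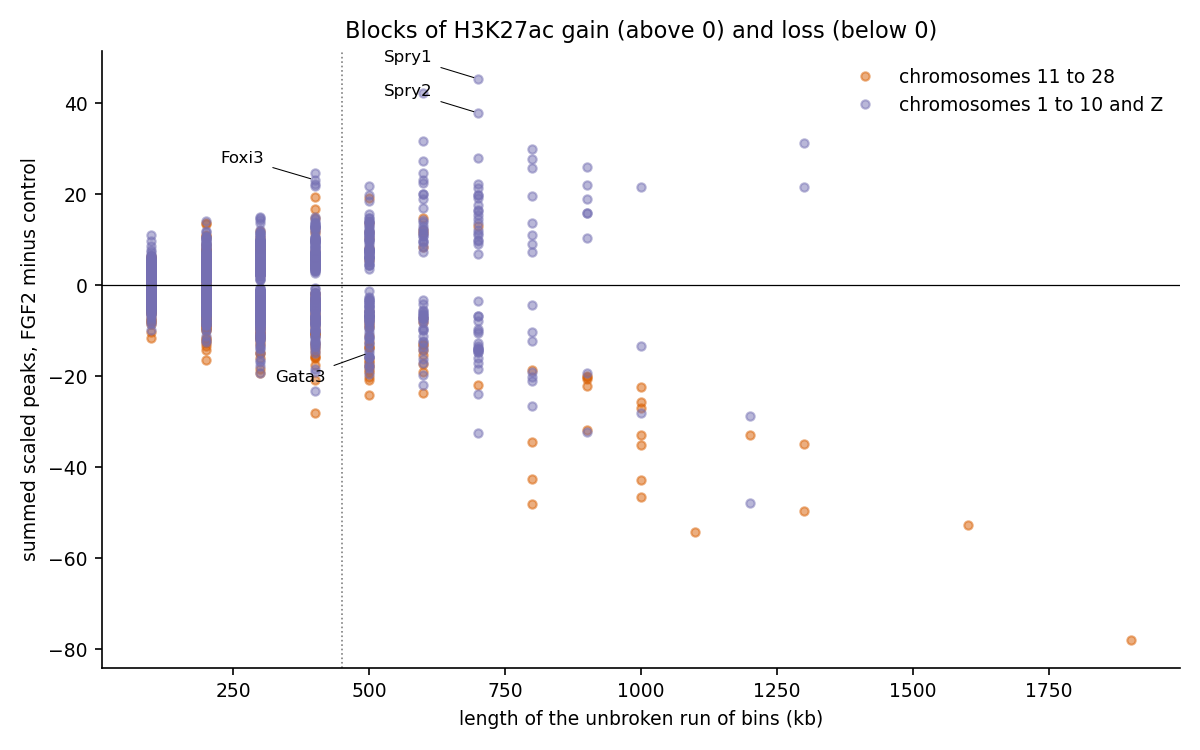
Length (x axis, kb) and summed scaled difference (y axis, FGF2 minus control) of all 2255 gain and 2259 loss blocks, coloured by chromosome group, with the dotted line between blocks shorter than 500 kb and those of 500 kb or more. The Spry1 and Spry2 blocks, 45.40 and 37.90, are among the highest points at 700 kb, and the long loss blocks at the lower right are mostly on chromosomes 11 to 28.

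Of the 10 bins with the largest gains, 4 lay in the Spry1 and chromosome Z blocks and 1 was the Foxi3 bin. The others were on chromosome 2 at 14.8 to 14.9 Mb, with 23 FGF2 peaks and 8 control peaks, and at 3.4 to 3.5 Mb, with 14 and 2. Further ones were on chromosome 5 at 51 to 51.1 Mb, with 15 and 2, chromosome 4 at 0.8 to 0.9 Mb, with 20 and 7, and chromosome 3 at 98.9 to 99 Mb, with 14 and 2. The chromosome 5 bin lay in the 6th largest gain block, of 800 kb, while the chromosome 3 bin stood alone. All 10 held at least 13 FGF2 peaks and no more than 8 control peaks, which describes bins chosen for that difference.

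The 10 bins with the largest losses all held FGF2 peaks. The lowest was on chromosome 21 at 0.7 to 0.8 Mb, with 12 FGF2 peaks and 25 control peaks. It was followed by chromosome 6 at 11.2 to 11.3 Mb, with 8 and 21, chromosome 23 at 4.9 to 5 Mb, with 9 and 21, and chromosome 12 at 2.5 to 2.6 Mb, with 4 and 16. The other 6 were on chromosomes 3, 20, 23, 24, 26 and 27, and had between 5 and 21 FGF2 peaks. In 3 of the 10 bins the ratio was too small for a loss call. The MACS2 scaled differences of the 10 bins ran from -13.01 on chromosome 6 to 4.94 on chromosome 26. The chromosome 26 bin was the only one above 0, while the bins on chromosomes 20 and 24 had -0.76 and -0.03. The bin with the most control peaks and 0 FGF2 peaks had 8 control peaks, whereas the Spry1 bin had 15 FGF2 peaks and 0 control peaks.

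Gains and losses were distributed unequally over the chromosomes. Chromosomes 11 to 28, the small gene-dense chromosomes of the chick, held 29.7% of the FGF2 list (29.2 to 30.1%, Wilson interval) and 33.9% of the control list (33.4 to 34.4%), a difference of -4.19 percentage points (-4.88 to -3.50). These intervals also cover counting error only, treat peaks as independent and hold no spread between libraries. Chromosomes 1 to 10 held 62.0% of the FGF2 list and 58.6% of the control list, and chromosome Z held 4.20% and 3.57%. The peaks as counted on chromosomes 11 to 28 were nearly equal, 11098 with FGF2 and 11082 in control, or 6.43 and 6.42 per bin. The peaks on chromosomes 1 to 10 numbered 23173 with FGF2 and 19191 in control. The lower share of the small chromosomes thus came with additional FGF2 peaks on the large ones, and loss on the small chromosomes is loss relative to the whole list.

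Calls followed the same division. On chromosomes 11 to 28, 3.71% of bins had a gain call and 6.60% a loss call, on chromosomes 1 to 10 the figures were 4.92% and 3.89%, and on chromosome Z 33 of 824 bins had a gain call and 15 a loss call. The ratio of list shares was below 1 for 15 of the 18 small chromosomes, with the interval below 1 for 11 of them, and above 1 for 6 of the 10 large ones, with the interval above 1 for 4. It was lowest for chromosome 23, a log2 ratio of -0.36 (-0.53 to -0.20), and for chromosome 21, -0.32. It was highest, apart from the few bins of chromosome 16, for chromosome Z, 0.23 (0.12 to 0.34). The H3K27me3 lists shifted the same way on chromosome Z, which held 6.17% of the FGF2 list and 5.09% of the control list, a log2 ratio of 0.28. The higher share of chromosome Z was thus not particular to acetylation, and its cause was not tested. Of the loss blocks of 1000 kb or more 13 of 17 were on chromosomes 11 to 28, and of the 3 such gain blocks 0 were, beside 17.2% of all bins. Of the blocks of 500 kb or more, the interval of the FGF2 share left out 53.3% in 62 of 131 gain blocks and 40 of 167 loss blocks, which were chosen for their sign. Chromosome 4, which carries Spry1 and Foxi3, had a log2 ratio of 0.04 (-0.04 to 0.13), and when each chromosome was scaled to its own totals the Foxi3 and Spry1 bins again ranked 1 and 2. With MACS2 peaks the share difference of chromosomes 11 to 28 was -3.95 percentage points. However, 5.02% of the FGF2 MACS2 peaks and 0.0362% of the control MACS2 peaks lay outside the binned chromosomes, and over the binned chromosomes alone the MACS2 difference was -2.09 points. The same restriction left the Homer difference at -4.28 points. All MACS2 values here leave out the parts of chromosomes 1, 2 and 3 from 100 Mb onward, where control positions are rounded. Of the MACS2 peaks used, those outside the binned chromosomes included, chromosomes 1 to 10 held 55.4% with FGF2 and 57.4% in control. This is opposite in direction to the Homer shares, which include those parts. Of the 10 large chromosomes 1 had a MACS2 log2 share ratio above 0. Over the binned chromosomes alone, with the rounded parts left out for both callers, chromosomes 1 to 10 held 58.3% of the MACS2 peaks with FGF2. In control they held 57.4% of the MACS2 peaks, and of the Homer peaks 59.9% with FGF2 and 56.4% in control. Whether MACS2 had the direction of Homer on the large chromosomes thus depended on the peaks outside the binned chromosomes.

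**Figure D5:**
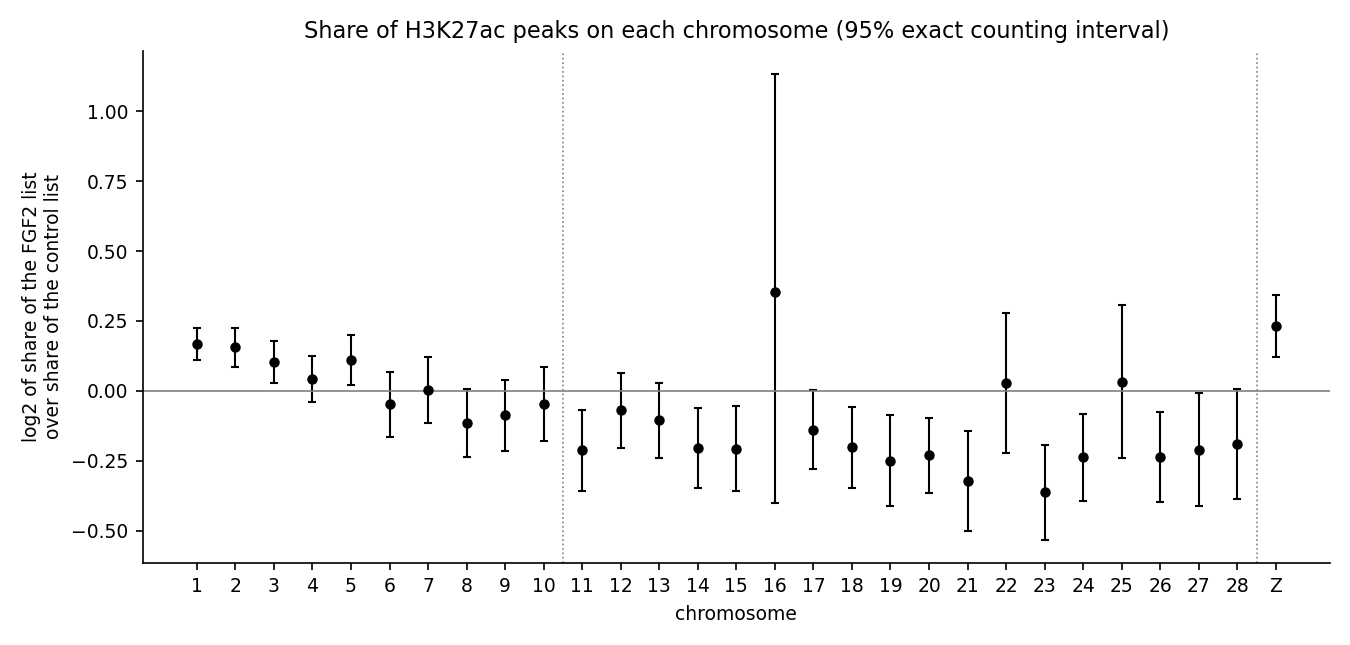
Log2 of the share of the FGF2 list over the share of the control list (y axis) for H3K27ac peaks on each of the 29 chromosomes (x axis), with 95% exact counting intervals. Dotted lines set off chromosomes 11 to 28, where 15 of 18 points lie below 0, from chromosomes 1 to 10 and from Z at 0.23.

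The FGF2 share of the peaks also moved with the density of a bin. In bins with 1 or 2 peaks in all it was 58.9%, in bins with 3 to 5 peaks 56.5%, with 6 to 10 peaks 54.7%, with 11 to 20 peaks 52.0% and with 21 to 55 peaks 50.6%. The part of peak density in the difference between chromosomes was not tested. The Spry1 and Spry2 blocks lay in sparse surroundings, with 16 and 16 peaks of FGF2 and control over the 10 bins at 600 to 1000 kb from Spry1 and 13 and 9 at the same distance from Spry2. Gene order in a later assembly (GRCg7b, used for names only) places FAT4 and ANKRD50 before SPRY1 and SPATA5 and FGF2 after it, and SLITRK1 and NDFIP2 beside SPRY2. It places IL17RD, an inhibitor of FGF signalling, next to HESX1, THNSL2 and EIF2AK3 beside FOXI3, and SLC25A48 and NEUROG1 beside CXCL14. Which of the bins hold these neighbours in galGal4 is not known here.

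The study searched 7 windows for AP1 sites, which it chose around FGF response genes, and these windows were read as a list of 50 bins. AP1 is the dimer of Fos and Jun proteins that acts at the end of the MAPK cascade. Of these 50 bins 14 had a gain call and 2 a loss call, and the median scaled difference was 1.07, beside 4.64%, 4.19% and 0 for all bins. Together the windows held 406 FGF2 peaks and 282 control peaks. The gains were concentrated in 3 windows, those of Spry2 with 48 FGF2 peaks and 11 control peaks, Spry1 with 61 and 11, and Foxi3 with 48 and 21. These 3 windows held 5, 4 and 2 of the gain calls. They surround displayed loci that were picked with these libraries in view and are described above. The count of 14 is thus not separate evidence of gain in windows searched for AP1 sites. The window of Cxcl14 had 44 and 40 peaks, and the 3 windows on chromosomes 26, 6 and 7, for which no gene name was used, had 105 and 103, 66 and 65, and 34 and 31. In these last 4 windows the ratio of scaled counts ran from 0.888 to 0.962. The best bin of each was among the top 158 gains, but it was picked as the highest of 7 or 8 bins. How often other windows of this size hold such a bin was not tested. The highest was the bin that starts at 16.7 Mb of chromosome 6, with 16 FGF2 peaks and 5 control peaks at rank 13.

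H3K27me3 differences showed little relation to those of H3K27ac. The correlation of the scaled differences of both marks over the 10032 bins was 0.033. Homer called 1.54 times as many H3K27me3 peaks on the binned chromosomes with FGF2 as in control, and the ratio was 1.53 in H3K27ac gain bins and 1.39 in loss bins. At the Sprouty genes H3K27me3 peaks were fewer with FGF2 in spite of this. The Spry1 block held 11 H3K27me3 peaks with FGF2 and 19 in control, and the Spry2 block 10 and 19. The chromosome Z block held 13 and 14 and the Foxi3 block 24 and 17. In the Gata3 loss block H3K27me3 peaks numbered 28 with FGF2 and 17 in control, in the Pax6 bin 9 and 7, and in the Dlx5/6 run 3 and 4. All are counts without scaling, to be read beside the ratio of 1.54 over all bins.

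With MACS2 peaks as a check, the direction was the same in most called bins. MACS2 positions of the control library are rounded from 100 Mb onward on chromosomes 1, 2 and 3, so 8485 bins could be compared. The MACS2 lists differ in size in the opposite sense, with 25174 FGF2 peaks and 35892 control peaks used, and were scaled likewise. The scaled differences of both callers had a correlation of 0.500 over these bins. Of the 386 gain bins among them MACS2 was higher with FGF2 in 318 and lower in 64, beside 39.0% and 45.5% of all 8485 bins. Of the 368 loss bins it was higher in 44 and lower in 323. Both callers used the same reads, so this is a check of the peak calling and not a replicate. Of the 12 locus bins with a MACS2 value 9 kept the sign of the Homer difference. The exceptions were Dlx5/6, with 6 MACS2 peaks in FGF2 and 8 in control and a scaled difference of 0.47, the first Gata3 bin, with 3 and 4, and the first Eya2 bin, with 5 and 9. All 3 had Homer differences within counting error. The Spry1 block held 53 MACS2 peaks with FGF2 and 17 in control, a ratio of 4.45 after scaling to the MACS2 list totals. The chromosome Z block held 34 and 13, a scaled ratio of 3.73. The largest loss block held 140 and 258, a scaled ratio of 0.774, nearer to 1 than the 0.666 of Homer. The next largest loss blocks, on chromosomes 20, 28, 13 and 21, had scaled MACS2 ratios of 0.869, 0.982, 0.624 and 0.764. These MACS2 totals include the peaks outside the binned chromosomes, 5.02% of the FGF2 list and 0.0362% of the control list. Totals of the binned chromosomes alone would raise each of these block ratios. The chromosome 28 block, at 0.982, was thus not shown to be lower with FGF2 by MACS2.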

How the data were processed

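Nano-ChIP-seq libraries of H3K27ac and H3K27me3 were read as deposited peak lists, 1 library per condition and mark. The authors aligned reads to galGal4 with Novoalign and called peaks against input with Homer and with MACS2. The deposited columns used are positions, since the score deposited in the Homer lists is 1 in every entry. No count of reads was used and no authors' comparison columns were read. Per-sample columns left out for want of a sample numbered 0.

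Homer peaks were assigned by midpoint to 100-kb bins from position 0 of chromosomes 1 to 28 and Z, empty bins included, and scaled to list totals. Calls needed a 2-fold ratio with 1 peak added and a scaled difference of 3. With 1 library a side no test was made. Blocks counted as long held at least 5 bins. Overlap meant at least 1 bp. MACS2 lists served as a check, without the parts of chromosomes 1, 2 and 3 from 100 Mb where control positions are rounded. Named were the bins of 9 displayed loci (13 bins, windows read by eye from the axes of browser views), the 10 highest and lowest bins and the 5 largest blocks each way. These members and lists were chosen with earlier results of these data known. Intervals came from scipy 1.17.1 and figures from matplotlib 3.10.9, with numpy 2.4.6 under Python 3.11.15, and the scripts were tested on simulated data. Alternatives covered the caller, scaling, bin size and offset, pseudocount and thresholds.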

Additional observations from a re-analysis of the deposited data

How the results depend on the processing

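Counts of bins and blocks moved with the definitions. The Spry1 and Foxi3 bins kept their sign in each alternative for which locus values were computed, which leaves out 50-kb and 200-kb bins. The 465 gain bins became 255 with MACS2 peaks, 288 with MACS2 peaks and totals of the binned chromosomes, 290 with Homer peaks that overlap MACS2 peaks, 949 without scaling, 168 with a difference of at least 5 and 226 at 3-fold. The 420 loss bins became 255 with Homer peaks that overlap MACS2 peaks, 219 in 200-kb bins, 148 with a difference of at least 5 and 152 at 3-fold. Gain blocks of 500 kb or more, 131, became 73 with MACS2 peaks and 421 where a run may hold 1 other bin. Loss blocks, 167, became 70 with overlapping Homer peaks, 101 with MACS2 peaks and binned totals, 29 without scaling and 446 with 1 other bin allowed. The share difference of -4.19 points became -5.77 with overlapping Homer peaks and -2.09 with MACS2 peaks and binned totals. The 3 called locus bins became 6 without scaling. The cause of these shifts was not tested. The Foxi3 bin's difference became 3.98 with MACS2 peaks, without reaching the 2-fold rule for a call. With bins shifted by 50 kb Spry1 ranked 17, Foxi3 25, Spry2 73, Hesx1 403, Cxcl14 2192 and the called Gata3 bin 9037. The number of called locus bins stayed at 3, but these were then Spry1, Spry2 and Hesx1, while Foxi3 and Gata3 lost their calls. Scaling by chromosome, totals of the binned chromosomes and Homer without the rounded parts were chosen after seeing the data. MACS2 gave no value at Spry2, and the share difference has no unscaled form. No paired analysis was possible because each condition has 1 library. Peak lists carry no read depth, which limits every bin to its few peaks.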
